A study of Mus musculus with 4 samples.

Results

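The cytosolic ribosomal protein (RP) genes were taken from the gene symbols of the deposited tables as all symbols that start with Rpl or Rps followed by a digit, plus Rplp0, Rplp1, Rplp2 and Rpsa. Symbols that start with Rps6k, which are kinases, and symbols that contain -ps, which are pseudogenes, were left out. This rule took 90 of 25209 symbols. By prefix, 54 were Rpl symbols, named for the large 60S subunit, and 36 were Rps symbols, named for the small 40S subunit. Rps27rt had no UMI in any library, and the other 89 passed the filter on low counts. By their names, 77 of the 90 encode structural proteins of the ribosome, 9 are paralogs, 3 are retrocopy symbols (Rpl32l, Rpl37rt and Rps23rg1), and 1, Rps19bp1, encodes a nucleolar protein that binds the RP Rps19 and is not itself part of the ribosome.

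Embryoid bodies (EBs) are aggregates of embryonic stem cells (ESCs) that differentiate into cells of several germ layers. V6.5 mouse ESCs grown in 2i and LIF were differentiated for 6 days in hanging drops, and single-cell 3' RNA was captured on a 10x Genomics instrument. WT EBs (2 libraries) and LSD1KO EBs (2 libraries) were compared, the latter from ESCs in which CRISPR had removed the promoter and first exon of Lsd1, the histone demethylase gene also named Kdm1a. The methods give the pairs as biological replicates without naming the clones used for the single-cell libraries, so the spread between libraries may include clone and culture together.

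Barcodes with at least 500 UMIs (unique molecular identifiers, 1 per captured RNA molecule) and at least 500 genes were kept as cells, which left 4393 and 6828 WT cells and 5693 and 3045 LSD1KO cells, with 63026235 to 68584803 UMIs per library. Kdm1a was at 221 and 246 CPM (UMI counts relative to the library total, scaled between libraries by TMM) in WT and at 1.10 and 0.81 CPM in LSD1KO, as the labels state (log2 fold change -7.92, edgeR adjusted p = 0.000131). At most 0.263% of the cell barcodes of the smaller library were shared by any pair of libraries. Clusters with a median under 3000 UMIs per cell held 8.55% of the cells of WT replicate 2 and between 18.0% and 29.4% of those of the other libraries, and values are given with and without them below.

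RPs form the protein part of the ribosome together with ribosomal RNA, and nearly every RP is made from 1 widely expressed gene. Their mRNAs are short and abundant and start with a run of pyrimidines (a 5' terminal oligopyrimidine or TOP motif) through which mTORC1 and LARP1 control their translation. A few RPs have paralogs expressed in particular tissues, among them Rpl10l and Rpl39l in male germ cells and Rpl3l in heart and skeletal muscle. High RP mRNA content is a known property of proliferating and undifferentiated cells.

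RP mRNAs took a smaller share of all UMIs in LSD1KO than in WT EBs. Pooled over cells, the RP share was 28.0% and 31.4% in WT and 24.2% and 24.99% in the LSD1KO libraries. Both LSD1KO libraries lay below both WT libraries, and the WT libraries differed from each other by more than the LSD1KO libraries did. The mean was 29.7% ± 2.36 (SD, n = 2) in WT and 24.6% ± 0.53 (SD, n = 2) in LSD1KO, a difference of -5.07 percentage points. The exact two-sided permutation test gave p = 0.33, the smallest p that 2 libraries against 2 allow, so this design could not reach the 0.05 threshold for a single value. Small and large subunit genes took part alike: Rps symbols held 12.4% and 14.01% of UMIs in WT and 10.9% and 11.2% in LSD1KO, and Rpl symbols held 15.6% and 17.4% in WT and 13.3% and 13.8% in LSD1KO. The ratio of Rpl to Rps UMIs stayed between 1.22 and 1.26 in all 4 libraries.

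The share varied widely between the cells of each library. The median cell had 26.4% and 31.8% RP UMIs in WT and 23.5% and 24.0% in LSD1KO, and the central 90% of cells ran from 6.05% to 40.5% in WT replicate 1. Cells with under 10% RP UMIs made up 14.9% of WT replicate 1 and only 3.37% of WT replicate 2, against 11.98% and 12.9% in LSD1KO. Barcodes with fewer than 100 UMIs, which mostly hold RNA from broken cells, had an RP share of 30.5% and 34.9% in WT and 26.2% and 31.1% in LSD1KO. WT replicate 2 was highest and LSD1KO replicate 1 lowest in this free RNA as well as in cells, and the part of free RNA in the difference between genotypes was not tested. Without the 4 clusters of shallow cells the share was 28.9% and 31.5% in WT and 24.5% and 25.3% in LSD1KO, so the gap of -5.27 percentage points was as large as with them.

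The RP share and the order of the libraries varied with the depth of the cells. Among cells with 20000 to 40000 UMIs, the RP share was 29.9% and 30.01% in WT and 24.3% and 25.8% in LSD1KO, the bin in which the WT libraries were closest to each other. Among cells with 5000 to 20000 UMIs, it was 27.0% and 31.9% in WT and 24.6% and 22.6% in LSD1KO. There the groups did not overlap, and the difference of means was -5.85 percentage points (exact permutation p = 0.33, n = 2 per group). Among cells with 2000 to 10000 UMIs, WT replicate 1 had 19.9%, WT replicate 2 31.4%, LSD1KO replicate 1 22.6% and LSD1KO replicate 2 17.4%. In that range WT replicate 1 lay between the LSD1KO libraries, so the groups overlapped.

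**Figure D1:**
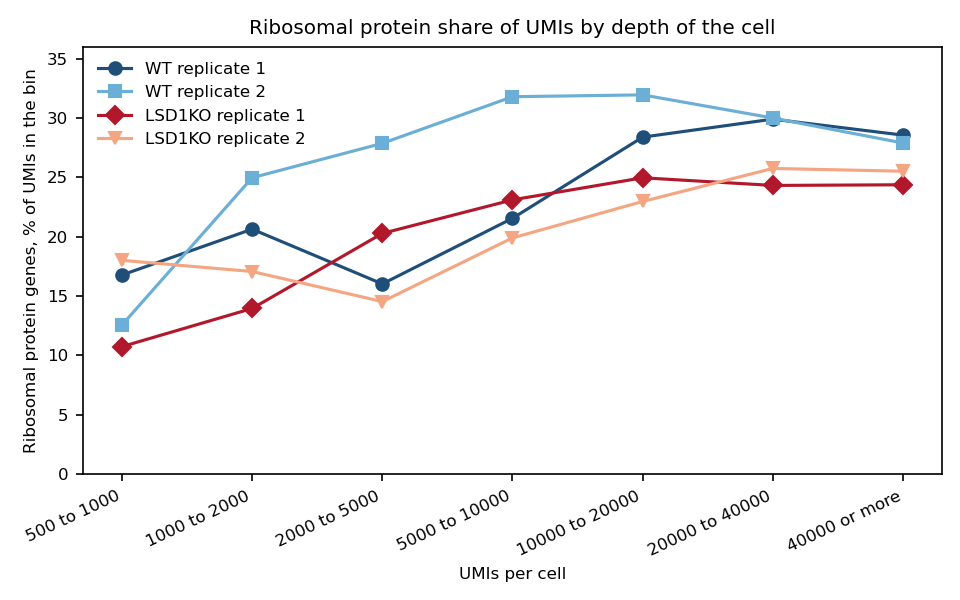
The RP share of UMIs (% of all UMIs in the bin, vertical axis) is plotted for each library against the depth of the cells (UMIs per cell, horizontal axis, 7 bins), with 1 line per library and no error bars. Above 10000 UMIs per cell both WT lines (27.9% to 32.0%) sit above both LSD1KO lines (23.0% to 25.8%). Below 10000 UMIs the lines of WT replicate 1 and the LSD1KO libraries cross. WT replicate 2 (12.6%) is below LSD1KO replicate 2 (18.0%) in the bin of 500 to 1000 UMIs.

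Most RP genes were lower in LSD1KO, although fewer of them passed the test than were below WT. Of the 89 RP genes tested on UMIs summed per library (edgeR quasi-likelihood test, Benjamini-Hochberg adjusted p under 0.05 over 16953 genes), 32 were lower and 5 higher in LSD1KO, and 52 did not pass. Over all genes tested, 21.6% were called lower and 22.6% higher. In sums over whole EBs, fewer cells of a type and less RNA per cell cannot be told apart. The fold change was negative for 76 of the 89 genes, with a median of -0.40 on the log2 scale, against -0.00088 for all genes. In 70 genes every LSD1KO library lay below every WT library, which was so for 38.4% of all genes tested. The calls rested on having both LSD1KO libraries: without either one of them 0 RP genes passed as lower in edgeR (5 and 10 RP genes in either direction at an unadjusted p under 0.05), while 68 passed without WT replicate 1 and 44 without WT replicate 2. DESeq2 called 60 lower on all 4 libraries, and 55 were lower in edgeR once the shallow clusters were left out.

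No structural gene was called higher. Of 77 structural RP genes, 31 were lower, 0 were higher (edgeR), and 46 did not pass. DESeq2 called 60 RP genes of all kinds lower and 6 higher, and the 6 were 5 paralogs and Rps19bp1. The median log2 fold change was -0.42 over the 46 structural genes of the 60S subunit, of which 19 were lower, and -0.46 over the 31 of the 40S subunit, of which 12 were lower. Fau, which encodes an RP fused to a ubiquitin-like protein under a symbol outside the rule, moved the same way. It was at 4079 and 5087 CPM in WT and 2606 and 2604 CPM in LSD1KO (log2 fold change -0.81, edgeR adjusted p = 0.0115).

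The largest fall among the RP genes was that of Rpl32, a 60S protein gene. It was at 8035 and 9446 CPM in WT and at 4693 and 5621 CPM in LSD1KO (log2 fold change -0.76, SE 0.178, edgeR adjusted p = 0.0198). Both LSD1KO libraries lay well below both WT libraries. Rpl13, which lies on the outer face of the 60S subunit, went from 9301 and 11307 CPM in WT to 5980 and 6355 CPM in LSD1KO (-0.74, edgeR adjusted p = 0.0196). Rpl3, a core protein close to the peptidyl transferase center, went from 2964 and 3497 CPM to 1925 and 2059 CPM (-0.70, edgeR adjusted p = 0.0133). In none of these did the genotypes overlap. The retrocopy symbol Rpl32l followed Rpl32 at a lower level, with 226 and 335 CPM in WT and 174 and 164 CPM in LSD1KO (-0.74, edgeR adjusted p = 0.0279), although near-identical copies can share reads in counting.

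Rpl41, Rpl13, Rps20 and Rpl32 were among the most abundant RP genes. Rpl41, which encodes the smallest RP, was at 8655 and 10319 CPM in WT and 7648 and 8013 CPM in LSD1KO (-0.28, edgeR adjusted p = 0.227). Rps20, on the head of the 40S subunit, was at 8317 and 9903 CPM in WT and 6772 and 7047 CPM in LSD1KO (-0.40, edgeR adjusted p = 0.101). Rpl41 and Rps20 were below WT in both LSD1KO libraries without passing the test.

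Members of the P-stalk, the flexible arm of the 60S subunit that recruits elongation factors, did not move together. Rplp0, the stalk base, was at 3073 and 3237 CPM in WT and at 3473 and 3669 CPM in LSD1KO, so that both LSD1KO libraries were above both WT libraries (log2 fold change 0.18, edgeR adjusted p = 0.303), and with library totals in place of TMM it passed as higher. Rplp1 was at 4437 and 5351 CPM in WT and 5063 and 5213 CPM in LSD1KO, with overlap (0.07, edgeR adjusted p = 0.739). Its partner Rplp2 was at 2956 and 3603 CPM in WT and 2466 and 2611 CPM in LSD1KO (-0.37, edgeR adjusted p = 0.0982). Rpl12, which binds the base of the stalk, fell from 3727 and 4479 CPM to 2640 and 2915 CPM (-0.56, edgeR adjusted p = 0.0330).

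Rpl5 and Rpl11 form the 5S RNP, which joins the 60S subunit and, when free, binds Mdm2 and thereby raises p53. Rpl5 fell from 1766 and 1998 CPM in WT to 1132 and 1268 CPM in LSD1KO (log2 fold change -0.65, edgeR adjusted p = 0.0129). Rpl11 was at 3088 and 3483 CPM in WT and 2476 and 2560 CPM in LSD1KO (-0.38, edgeR adjusted p = 0.0642). Both were below WT in both LSD1KO libraries, and only Rpl5 passed the test in edgeR on all 4 libraries.

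**Figure D2:**
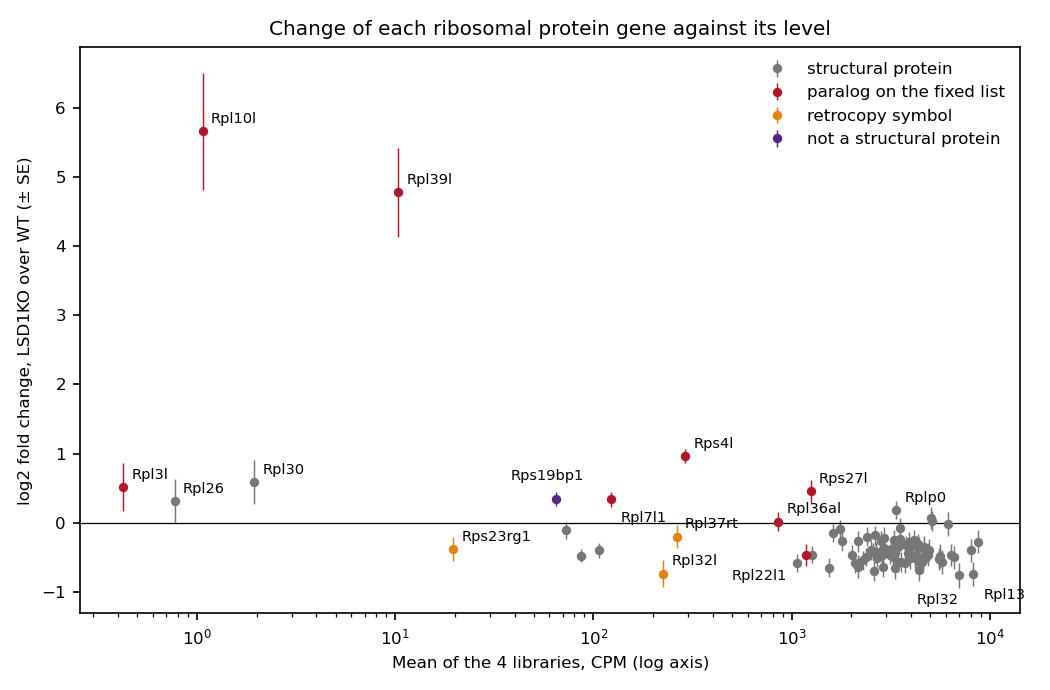
Each point is 1 of the 89 RP genes tested, with its mean level over the 4 libraries (CPM, log axis) on the horizontal axis and its log2 fold change of LSD1KO over WT on the vertical axis, where bars show the SE from edgeR. Most structural genes (gray) lie below 0 at levels above 1000 CPM, whereas the paralogs Rpl10l (5.66), Rpl39l (4.78) and Rps4l (0.96) lie above 0 at lower levels.

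The proportions among structural RP mRNAs also shifted, which can be read without any scaling between libraries. As a share of all structural RP UMIs, Rplp0 was 1.09% and 0.973% in WT and 1.54% and 1.55% in LSD1KO. Rplp1 was 1.58% and 1.61% in WT and 2.25% and 2.20% in LSD1KO. Together with Rps2 (1.73% and 1.56% in WT, 2.13% and 2.30% in LSD1KO) and Rps12 (1.96% and 2.08% in WT, 2.62% and 2.68% in LSD1KO), these genes were singled out after their values were seen. Rpl32 moved the other way, with 2.85% and 2.84% of structural RP UMIs in WT and 2.08% and 2.38% in LSD1KO. Over the 72 structural genes above 500 CPM, the log2 change of this share ran from -0.35 for Rpl32 to 0.58 for Rplp0. The share was lower in both LSD1KO libraries for 32 genes, higher in both for 24 and overlapping for 16. In CPM, another measure, 38.4% of all genes tested were lower in both LSD1KO libraries than in both WT libraries. The shares within a library are parts of the same total, so a rise of some genes lowers the shares of others. No share over all genes was computed for the counts of shares, which are a description with no test.

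The same proportions were compared between clusters of cells (below), among which 10 were almost wholly WT and 4 almost wholly LSD1KO. The share of Rplp0 ran from 0.831% to 1.26% of structural RP UMIs over the WT clusters and from 1.42% to 1.58% over the LSD1KO clusters. That of Rplp1 ran from 1.55% to 1.97% over the WT clusters and from 2.03% to 2.30% over the LSD1KO clusters. For 60 of 72 genes the ranges overlapped, for 6 (Rplp0, Rplp1, Rps2, Rps21, Rpl7 and Rpl7a) the LSD1KO clusters were all higher, and for 6 (among them Rpl3, Rpl17, Rps14 and Rps19) all lower. Clusters of 1 genotype share the same libraries, and these counts are a description with no test.

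A few structural RP genes were counted at levels far below the rest. Rpl26 was at 0.562 and 0.816 CPM in WT and 0.933 and 0.780 CPM in LSD1KO, and Rpl30 was at 1.17 and 1.95 CPM in WT and 2.06 and 2.61 CPM in LSD1KO, neither past the test. Rps6, Rpl34 and Rps27 were between 63.4 and 130 CPM in every library, while the other 72 structural genes averaged at least 1061 CPM. The last 300 bases of the annotated transcript of each of these 5 genes matched another place in the genome over at least 99.3% of their length (mm9, at least 98% identity over at least 90 bases). Reads with more than 1 best place can go uncounted. How they were handled is not stated beyond default parameters, so levels of these genes are uncertain. Such matches were also present for 40 of the 77 structural genes in all, over more than 90% of the bases searched, most of them at high counts. The median log2 fold change was -0.43 for the 40 genes and -0.43 for the 30 with no match. For the 5 genes at low counts, which are among the 40, it was -0.11. The part of the matches in these changes was not tested.

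The paralog and retrocopy symbols did not share 1 direction. Of 11 paralog and retrocopy symbols tested, 4 were higher in LSD1KO (Rpl10l, Rpl39l, Rps4l and Rpl7l1), 1 was lower (Rpl32l), and 6 did not pass (edgeR), with a median log2 fold change of 0.34, beside 22.6% higher and 21.6% lower among all genes. Rpl22l1 (-0.47), Rps23rg1 (-0.38) and Rpl37rt (-0.20) had negative values without passing. The starts of their transcripts are shown because the TOP run belongs to the RP genes as a class. Each line gives the 15 bases before and the first 15 bases of an annotated transcript (GENCODE M1, genome build mm9), where capitals mark a C at the first base followed by at least 4 bases that are C or T.
Rpl32: gcgccgccgccgcctCTTCCTTCTTCCTCg
Rpl10: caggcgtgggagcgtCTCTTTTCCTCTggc
Rpl10l: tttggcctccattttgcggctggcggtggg
Rpl39l: agctcccaggcctttccggatttccggtgg
Rpl7l1: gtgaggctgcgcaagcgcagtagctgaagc
Rps27l: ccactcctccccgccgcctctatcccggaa

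The windows lie at chr6:115758751-115758780 on the minus strand for Rpl32, chrX:71516181-71516210 on the plus strand for Rpl10, chr12:67385374-67385403 on the minus strand for Rpl10l, chr16:10170304-10170333 on the plus strand for Rpl39l, chr17:46919591-46919620 on the minus strand for Rpl7l1 and chr9:66793878-66793907 on the plus strand for Rps27l. Such a run at an annotated start was present for 16 of 75 structural RP genes with an annotation (21.3%), for 0 of 7 paralog symbols, and for 4.27% of 18452 protein-coding genes. When the run could start up to 5 bases to either side on the transcribed strand, the shares were 52.0% of structural RP genes, 42.9% of the paralogs and 29.9% of all genes. Annotated starts can miss the true start by a few bases, so a missing run says only that these letters are not there. Structural RP genes with a run at the start had a median log2 fold change of -0.41 and those without one -0.44.

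Rpl39l was called higher in LSD1KO from a very low level in WT. It encodes a paralog of Rpl39, a protein of the peptide exit tunnel, and lies at chr16:10170319-10175004 (mm9). It was at 0.241 and 1.21 CPM in WT (15 and 77 UMIs) and at 15.7 and 24.3 CPM in LSD1KO (1113 and 1589 UMIs). Both LSD1KO libraries lay above both WT libraries (log2 fold change 4.78, SE 0.642, edgeR adjusted p = 0.00384). Rpl39 itself fell from 5100 and 5794 CPM to 3707 and 3775 CPM (-0.54, edgeR adjusted p = 0.0295). The ratio of Rpl39l to Rpl39 UMIs was 4.73e-05 and 0.000209 in WT and 0.00424 and 0.00643 in LSD1KO, so Rpl39l stayed a small part of the pair in every library. The last 300 bases of Rpl39l matched nowhere else in the genome.

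Rpl10l, an intronless copy of Rpl10 at chr12:67384368-67385388 (mm9), was counted at 0 and 5 UMIs in WT and 98 and 184 UMIs in the LSD1KO libraries. This was 0 and 0.0785 CPM in WT and 1.39 and 2.81 CPM in LSD1KO (log2 fold change 5.66, SE 0.848, edgeR adjusted p = 0.00512), a size that rests on 5 UMIs in WT. Rpl10 was at 2667 and 3069 CPM in WT and 2060 and 2301 CPM in LSD1KO (-0.40, edgeR adjusted p = 0.0701).

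Rps4l, a copy of the X-linked Rps4x, was at 186 and 206 CPM in WT and 368 and 396 CPM in LSD1KO, 1.95-fold higher (log2 fold change 0.96, SE 0.103, edgeR adjusted p = 0.00201). The libraries of each genotype were close to each other. Rps4x fell from 3175 and 3845 CPM to 2231 and 2294 CPM (-0.63, edgeR adjusted p = 0.0200). No gene named Rps4l was in the annotation used, so its end was not searched for matches. The last 300 bases of Rps4x matched other places in the genome over 100% of their length. How reads were divided between such copies was not tested. Rps4l, Rpl39l and Rpl10l remained higher without each of the 4 libraries in turn, and with the cells thinned to 1000 UMIs each Rps4l and Rpl39l remained while Rpl10l was no longer called.

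Rpl7l1, a nucleolar relative of Rpl7, rose from 99.6 and 116 CPM to 133 and 139 CPM (log2 fold change 0.34, edgeR adjusted p = 0.0462), and Rps19bp1 rose from 53.2 and 60.9 CPM to 75.5 and 69.4 CPM (0.34, edgeR adjusted p = 0.0422). Both calls were close to the threshold and were lost without WT replicate 1 and without either LSD1KO library. Rps27l, a p53 target gene, was at 891 and 1210 CPM in WT and 1454 and 1421 CPM in LSD1KO (0.45, edgeR adjusted p = 0.0785). Rpl3l was under 0.6 CPM in every library.

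As ratios to their partner genes, 6 of 7 paralogs with UMIs of both genes in every library were higher in both LSD1KO libraries than in both WT libraries. The partners are structural RP genes, of which 72 of 77 had a negative fold change (median log2 -0.43). Such a ratio also rises where only the partner falls, and no share over all genes was computed for this count. The log2 ratio of Rps4l to Rps4x was -4.10 and -4.22 in WT and -2.60 and -2.54 in LSD1KO, a difference of 1.59. The log2 ratio of Rpl36al to Rpl36a was -1.74 and -1.65 in WT and -1.12 and -1.13 in LSD1KO, a difference of 0.57. Rpl36al itself was at 762 and 931 CPM in WT and 856 and 857 CPM in LSD1KO, so this ratio moved with the fall of Rpl36a (from 2540 and 2915 CPM to 1867 and 1871 CPM, edgeR adjusted p = 0.0222). The log2 ratio of Rps27l to Rps27 rose from 2.77 and 3.43 to 4.05 and 3.88, although the low count of Rps27 makes it uncertain. Each of these 6 comparisons had an exact permutation p = 0.33 (n = 2 per group), 0.389 after Benjamini-Hochberg adjustment over the 7 pairs, with 0.33 the smallest p possible.

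Rpl22l1 and Rpl22, which is known to repress Rpl22l1, both had lower levels in LSD1KO. Rpl22 fell from 2149 and 2533 CPM in WT to 1682 and 1716 CPM in LSD1KO (log2 fold change -0.46, edgeR adjusted p = 0.0397). Rpl22l1 was at 1190 and 1563 CPM in WT and 989 and 1001 CPM in LSD1KO (-0.47, edgeR adjusted p = 0.0590). The log2 ratio of the 2 genes was -0.85 and -0.70 in WT and -0.77 and -0.78 in LSD1KO, so that both LSD1KO libraries lay between the WT libraries (exact permutation p = 1, n = 2 per group).

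The 17 clusters of cells were built from variable genes that held no RP gene. They separated by genotype, with 8 well covered clusters (median over 5000 UMIs per cell) of over 90% WT cells, 4 of over 90% LSD1KO cells, and 3 clusters with at least 30 cells from every library. Over the 8 WT clusters the RP share was 26.5% to 32.0% of UMIs, and over the 4 LSD1KO clusters it was 23.1% to 27.4%. The highest WT shares were in a cluster led by Gpx2 and Krt7 (32.0%), in the endoderm-like cluster led by Ttr (31.6%) and in the endothelial-like cluster (30.7%). A mesoderm-like cluster led by Hand1 and Tnnt2 had 29.7%, and the WT ectoderm-like cluster led by Shh had 28.2%. Among the LSD1KO clusters the ESC-like one led by Dppa5a and Dppa2 had 27.4%, the ectoderm-like ones led by Pim2 and by Ptn had 24.4% and 24.8%, and the one led by Mixl1 had 23.1%. WT replicate 2 exceeded WT replicate 1 in every WT cluster with at least 30 cells of both libraries except the cluster led by S100a6 (26.7% and 26.4%), while the LSD1KO libraries were closest in the cluster led by Pim2 (24.4% and 24.4%) and farthest apart in the one led by Mixl1 (23.0% and 24.1%). Since no LSD1KO cluster held many WT cells, cell type and genotype cannot be told apart across these clusters.

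**Figure D3:**
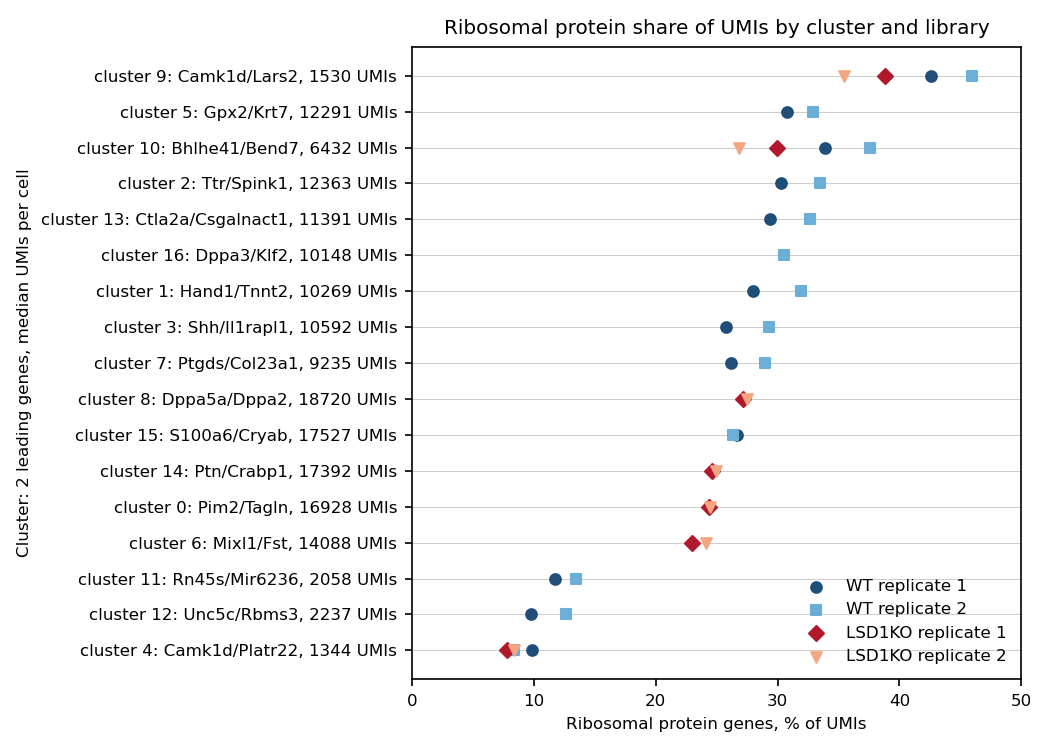
The RP share of UMIs (%, horizontal axis) is shown for each of 17 clusters (vertical axis, with their leading genes and median UMIs per cell, ordered by share), with 1 symbol per library that had at least 30 cells in the cluster and no error bars. Shares ran from 8.23% to 40.9%, and both extremes were clusters with medians under 2000 UMIs per cell that held cells of every library.

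Clusters of shallow cells had the most extreme shares. Cluster 4 (1615 cells, median 1344 UMIs, led by Camk1d and Platr22) had 9.85% and 8.35% RP UMIs in WT and 7.78% and 8.37% in LSD1KO, with overlap. Cluster 9 (951 cells, median 1530 UMIs, led by Camk1d and Lars2) had 42.6% and 45.9% in WT and 38.8% and 35.4% in LSD1KO, with all WT values above all LSD1KO values. The lowest and the highest share of any cluster were thus both found among shallow cells. Both clusters stayed unnamed, since under 3 markers of any class were raised in them.

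The 3 shared clusters allowed WT and LSD1KO cells of 1 cluster to be compared. Cluster 10 (833 cells, median 6432 UMIs, led by Bhlhe41 and Bend7, unnamed) had RP shares of 33.9% and 37.5% in WT and 29.96% and 26.8% in LSD1KO. Of 85 RP genes tested there, 49 were lower and 1 was higher in LSD1KO by edgeR, with a median log2 fold change of -0.58. Over all genes tested in cluster 10, 8.73% were lower and 10.6% higher. The count of RP genes lower fell to 32 with library totals in place of TMM, to 17 with the replicate number as a block, and to 11 without WT replicate 2 or without LSD1KO replicate 2. In cluster 9, 28 of 85 RP genes were lower and 2 higher (all genes: 5.28% lower, 4.10% higher), and the number lower was 1 with the block, 5 to 13 without each of 3 libraries in turn and 1 without LSD1KO replicate 2. In cluster 4, 0 of 84 RP genes were called in edgeR (all genes: 1.38% lower, 2.88% higher), with 10 at an unadjusted p under 0.05 and a median of -0.27.

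Rpl13 and Rpl32, lower in whole EBs, were also lower in cluster 10. Rpl13 was at 13531 and 16251 CPM in WT and 7777 and 6582 CPM in LSD1KO (log2 fold change -1.05, edgeR adjusted p = 0.00114), and Rpl32 was at 10456 and 13051 CPM in WT and 6124 and 5837 CPM in LSD1KO (-0.98, edgeR adjusted p = 0.00163). In cluster 9 Rpl32 was at 12635 and 14168 CPM in WT and 7138 and 6644 CPM in LSD1KO (-0.96, edgeR adjusted p = 0.00138). The paralogs Rpl36al (1021 and 1145 CPM in WT, 757 and 568 CPM in LSD1KO, edgeR adjusted p = 0.00433) and Rps27l (901 and 1174 CPM in WT, 837 and 626 CPM in LSD1KO, edgeR adjusted p = 0.0453) also fell in cluster 10. Of the 49 RP genes lower in cluster 10, 24 were among the 32 lower in whole EBs, which is 49.0% of the former and 75% of the latter, and these cells are part of the whole-EB sums.

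Rpl39l was the RP gene higher in LSD1KO in cluster 10. It had 0 UMIs in the WT cells of cluster 10 and 85 and 27 UMIs in the LSD1KO libraries. Against a floor of 3 UMIs over the WT cells of cluster 10, which corresponds to 1.18 CPM, the LSD1KO level of 29.2 CPM was at least 24.8-fold higher. In cluster 9 it had 0 UMIs in WT and 12 and 15 UMIs in LSD1KO, at least 11.996-fold higher by the same floor (2.66 CPM in WT). Barcodes with fewer than 100 UMIs held Rpl39l at 0.413 and 1.23 CPM in WT and 23.4 and 23.9 CPM in LSD1KO, near the levels in the LSD1KO cells of both clusters, so these bounds compare UMIs counted in the barcodes, and the part of free RNA in them was not tested. Rps4l in cluster 9 rose from 326 and 299 CPM in WT to 555 and 467 CPM in LSD1KO (log2 fold change 0.70, edgeR adjusted p = 0.0190), while in cluster 10 it was at 229 and 263 CPM in WT and 242 and 197 CPM in LSD1KO (-0.17, edgeR adjusted p = 0.516).

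Where a library had at least 30 cells in a cluster, Rpl39l was highest in the ESC-like cells in both genotypes. In the LSD1KO libraries it was at 71.5 and 71.1 CPM in the ESC-like cluster 8, which held 56.9% of the 2702 Rpl39l UMIs of LSD1KO cells, and at 10.8 and 10.8 CPM in the ectoderm-like cluster 0. It was lowest at 5.52 and 3.52 CPM in the cluster led by Mixl1. In WT it was at 31.9 CPM in replicate 2 in the ESC-like cluster 16, led by Dppa3 and Klf2, which held 77 of the 92 Rpl39l UMIs of all WT cells (83.7%). In the WT mesoderm-like cluster led by Hand1 and in the Shh cluster 0 UMIs were counted. In LSD1KO the levels in cluster 8 were above the free-RNA levels of the same libraries (23.4 and 23.9 CPM), and those in clusters 0 and 6 were below them. In the LSD1KO libraries Rpl39l was at 39.7 and 27.5 CPM in cluster 9 and at 33.0 and 21.3 CPM in cluster 10. The cluster led by S100a6 held only 7 and 5 LSD1KO cells, with 17 and 14 Rpl39l UMIs among 52641 and 95480 UMIs. Rpl39l was a larger part of UMIs in these few cells than in cluster 8. The part of free RNA in UMIs outside the ESC-like clusters was not tested, and these UMIs are not read as expression in those cells.

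Rps4l was also highest in the ESC-like clusters. It was at 792 CPM in WT replicate 2 in cluster 16 and at 585 and 574 CPM in the ESC-like LSD1KO cluster 8. In the other LSD1KO clusters above 5000 UMIs it was between 363 and 424 CPM. The WT endoderm-like cluster 2 had 151 and 159 CPM, and the S100a6 cluster had the highest WT level outside cluster 16, at 307 and 280 CPM. The CPM values by cluster in these paragraphs on Rpl39l and Rps4l were not scaled by TMM. In barcodes with fewer than 100 UMIs Rps4l was at 228 and 239 CPM in WT and 499 and 543 CPM in LSD1KO, and the part of free RNA in its levels by cluster was not tested.

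**Figure D4:**
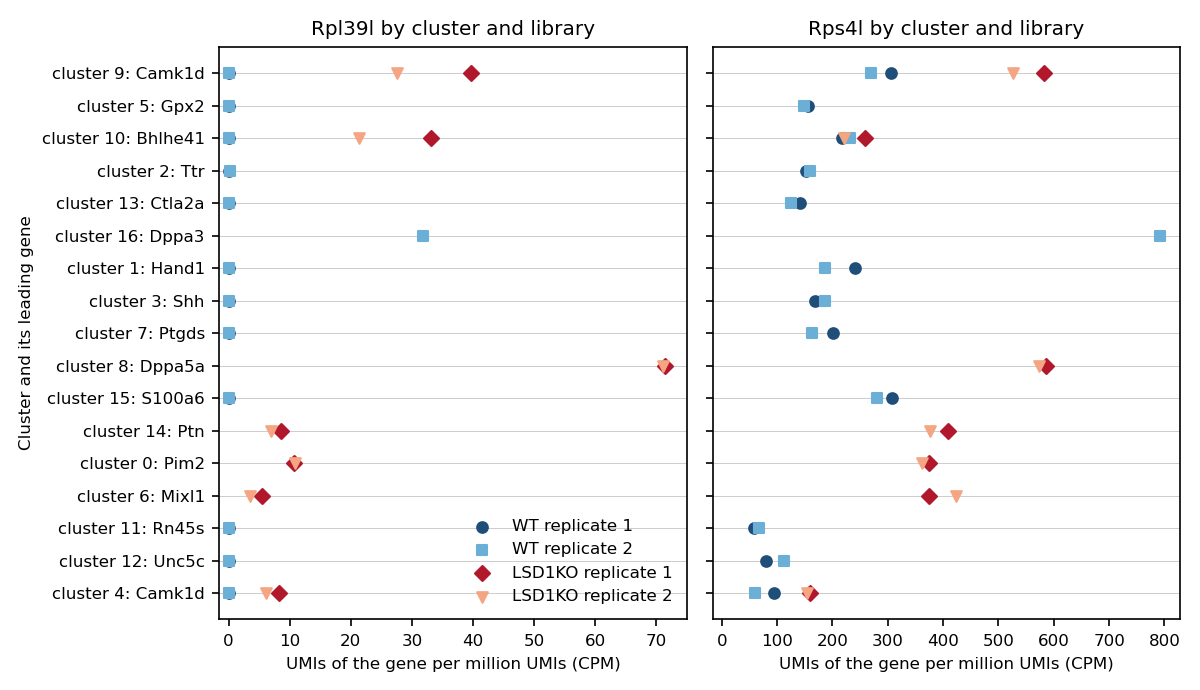
Levels of Rpl39l (left) and Rps4l (right) in CPM (horizontal axes) are shown by cluster (vertical axis, with the leading gene) and library, with 1 symbol per library that had at least 30 cells in the cluster and no error bars. Rpl39l is highest in the LSD1KO libraries in cluster 8 (71.5 and 71.1 CPM) and is near 0 in WT outside cluster 16, and Rps4l is highest in clusters 16 and 8.

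Among the 83 RP genes above 50 CPM, levels varied over the 15 clusters with at least 200 cells and a median of at least 2000 UMIs by a median range of 1.80 on the log2 scale. For most of them the lowest cluster was number 12 (median 2237.5 UMIs per cell), whose RP share as a whole was 10.1%. The 5 widest ranges were those of Rps4l (3.65), Rps27l (2.63), Rps15a (2.19), Rps13 (2.19) and Rps12 (2.18). Rps27l ran from 260 CPM in cluster 12 to 1616 CPM in the ESC-like cluster 8. Rps15a, a 40S protein gene, ran from 1314 CPM in cluster 12 to 6015 CPM in cluster 10. Rps13 ran from 720 CPM in cluster 12 to 3286 CPM in cluster 16, and Rps12 from 1763 CPM in cluster 12 to 7989 CPM in cluster 10.

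As a share of structural RP UMIs, which removes the overall level, the range over clusters was a median 1.33-fold and at most 1.93-fold for the 72 genes above 500 CPM. The widest was that of Rpl41, which made up 1.83% of structural RP UMIs in cluster 10 and 3.52% in cluster 0. In cluster 10 Rpl41 was at 7483 and 7933 CPM in WT and 4760 and 4062 CPM in the LSD1KO libraries (edgeR adjusted p = 0.00457).

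Genes that build ribosomes moved the other way from the RP genes. Of 37 genes for ribosome biogenesis and RNA polymerase I, 23 were higher and 1 was lower in LSD1KO (edgeR), with a median log2 fold change of 0.44, beside 22.6% higher and 21.6% lower among all genes. Polr1a, the largest subunit of RNA polymerase I, was at 40.8 and 39.4 CPM in WT and 80.4 and 80.7 CPM in LSD1KO (1.01, edgeR adjusted p = 0.000953). Nop10 and Nhp2, proteins of the box H/ACA complexes that modify ribosomal RNA, were at 284 and 359 CPM and at 220 and 276 CPM in WT, and at 549 and 586 CPM and at 425 and 441 CPM in LSD1KO (0.82 and 0.81, edgeR adjusted p = 0.00748 and 0.00686). Utp20, of the small subunit processome, rose from 63.3 and 62.9 CPM to 106 and 107 CPM (0.76, edgeR adjusted p = 0.00177). The gene lower was Nop14, with 102 and 105 CPM in WT and 83.8 and 88.5 CPM in LSD1KO (-0.27, edgeR adjusted p = 0.0449), named after its value was seen.

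Elongation and initiation factor genes were called about as often in each direction as all genes (22.6% higher, 21.6% lower). Among 9 elongation factor genes 2 were higher and 2 lower: Eef1a1, the factor that brings aminoacyl-tRNA to the ribosome and a TOP mRNA itself, fell from 6385 and 6846 CPM to 4649 and 4678 CPM (log2 fold change -0.50, edgeR adjusted p = 0.0343), Eef2 fell from 1173 and 1179 CPM to 908 and 914 CPM (-0.37, edgeR adjusted p = 0.0345), and Eif5a rose from 798 and 944 CPM to 1144 and 1234 CPM (0.45, edgeR adjusted p = 0.0383). Among 30 initiation factor genes 6 were higher and 6 lower, with a median of 0.0022. Eif3f, Eif3e and Eif2s2 fell (-0.66, -0.62 and -0.56, edgeR adjusted p = 0.00686, 0.00846 and 0.0135), and Eif1ax rose (0.54, edgeR adjusted p = 0.0137).

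A list of 14 non-RP genes known for TOP RNAs shared Eef1a1 and Eef2 with the elongation factors. It also shared Pabpc1 with the initiation factors and Npm1 with the biogenesis genes. The median log2 fold change of the 14 genes was -0.07. Of them, 5 were lower, Eef1a1 and Eef2 among these, and 0 higher (edgeR), beside 21.6% lower and 22.6% higher among all genes. They included host genes of small nucleolar RNAs: Gas5 was at 822 and 993 CPM in WT and 497 and 409 CPM in LSD1KO (-1.003, edgeR adjusted p = 0.00543), Snhg6 at 156 and 204 CPM and 91.4 and 102 CPM (-0.90, edgeR adjusted p = 0.00677), and Snhg8 at 115 and 143 CPM and 71.2 and 74.0 CPM (-0.83, edgeR adjusted p = 0.00540). Among 17 genes of MYC and mTORC1 signaling, 1 was higher and 3 were lower, no larger a share lower than the 21.6% of all genes. The 3 included Eif4ebp1, a translation repressor that mTORC1 inactivates, with 548 and 643 CPM in WT and 322 and 380 CPM in LSD1KO (-0.76, edgeR adjusted p = 0.00857). Of 78 genes of the mitochondrial ribosome, 22 were higher and 6 lower, with a median of 0.13, beside 22.6% higher and 21.6% lower among all genes. Mrpl35 and Mrpl20 rose (0.80 and 0.74, edgeR adjusted p = 0.00205 and 0.00301), and Mrpl23 and Mrpl14 fell (-1.14 and -0.73, edgeR adjusted p = 0.00365 and 0.00409).

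**Figure D5:**
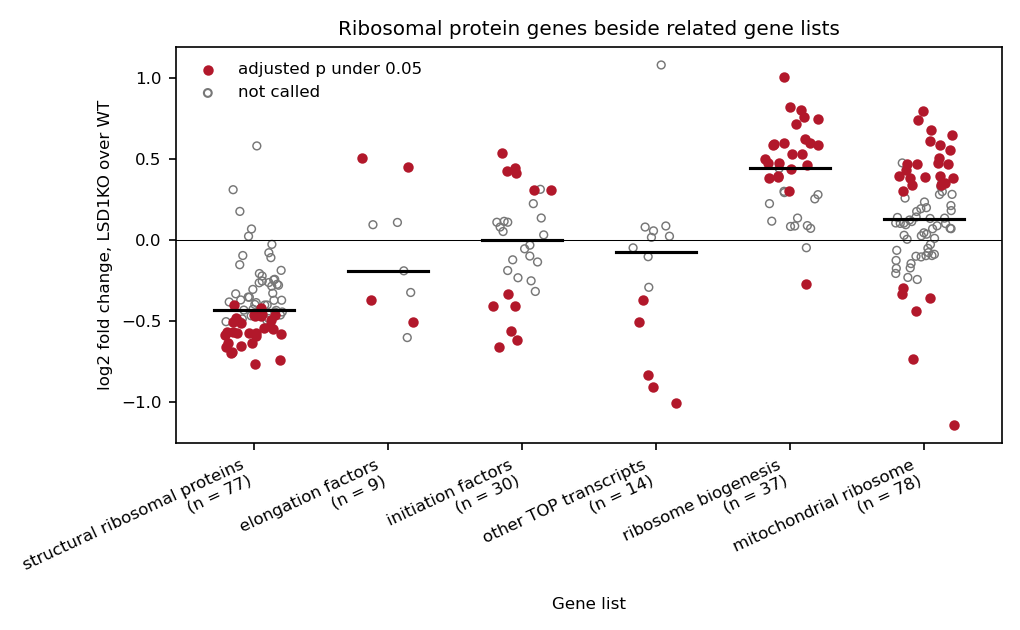
Log2 fold changes of LSD1KO over WT in whole EBs (vertical axis) are shown for the genes of 6 lists (horizontal axis), where each circle is 1 gene, filled red circles passed the edgeR test, and black bars mark the medians. The median is -0.43 for 77 structural RP genes and 0.44 for 37 ribosome biogenesis genes. Eef1a1, Eef2, Pabpc1 and Npm1 are each on more than 1 list.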

How the data were processed

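The authors deposited, for each of 4 libraries (2 per genotype, grouped by the titles), an unfiltered matrix of raw UMI counts per gene and barcode. Per the submitters' processing notes it was made with Cell Ranger 7.1.0 on mm9, and Seurat 4.3.0 was used downstream. No mitochondrial genes were listed. Single-cell libraries from 3' ends count reads near the end of transcripts, so RP genes with near-identical copies can lose reads.

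Cells were barcodes that reached 500 UMIs and also 500 genes, and no doublet caller was run. The RP genes, the other gene lists and the tests were chosen with earlier results of these data known. UMIs were summed per library and genes seen in at least 10 cells were tested with edgeR 4.0.16 (TMM, filterByExpr, quasi-likelihood test, tested on simulated data). Shares and ratios used exact two-sided permutation tests (scipy). Depth was 63026235 to 68584803 UMIs per library in cells. CPM is the UMI count scaled to the library total, with TMM unless stated otherwise, and floors of 3 UMIs cover counting error only. Clusters came from Seurat 5.3.0 (2000 variable genes without RP genes, 30 principal components, resolution 0.4). A cluster was named from fixed markers when at least 3 were raised, with the naming thresholds set after the data were seen. Fits within clusters used those with at least 30 cells in every library. Transcript ends were searched with blastn 2.17.0.

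Genes named were the 5 highest and 5 lowest RP genes by mean level, the 5 largest called rises and falls, paralog pairs, stalk and 5S RNP members, the 5 with the widest range over clusters, up to 4 called genes per related list (20 CPM or more in the genotype with more), and Kdm1a. Alternatives were other normalizations, filters, thinning to 1000 UMIs, DESeq2 1.42.0, the replicate block, other clusterings and leaving out libraries. Some genes that this rule takes are not reported here.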

Additional observations from a re-analysis of the deposited data

Results flagged for a closer look

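Barcodes with fewer than 100 UMIs, which entered no comparison of genes, also held Rpl39l at a higher level in LSD1KO. It was at 0.413 and 1.23 CPM in WT (1 and 5 UMIs) and 23.4 and 23.9 CPM in LSD1KO (48 and 78 UMIs). Rpl10l had 0 UMIs there in both WT libraries and 1.46 and 2.14 CPM in LSD1KO (3 and 7 UMIs). The levels in these barcodes were close to those in the cells of the same libraries.

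Rps27l had changes of opposite sign in 2 clusters that both genotypes share, of which 1 passed the test. In cluster 10 both LSD1KO libraries were below both WT libraries (log2 fold change -0.51, edgeR adjusted p = 0.0453). In cluster 4 both were above without passing, with 302 and 270 CPM in WT and 325 and 359 CPM in LSD1KO (0.24, edgeR adjusted p = 0.544). In cluster 9 the change was 0.07 (edgeR adjusted p = 0.874). The difference between the clusters was not tested.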

How the results depend on the processing

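The RP share stayed lower in LSD1KO without each library in turn (differences from -6.74 to -3.40 percentage points; from -8.31 to -3.39 in cells of 5000 to 20000 UMIs). In whole EBs the number of RP genes higher ranged from 3 to 6 and the number lower from 0 to 68 over these fits, with 68 without WT replicate 1 and 0 without either LSD1KO library, and the median log2 fold change from -0.52 to -0.29. Thinning to 1000 UMIs left 2 higher and 3 lower, DESeq2 called 60 lower, library totals moved the median to -0.27 (the median of all genes moved to 0.13), and leaving out the shallow clusters, chosen after seeing the data, gave 55 lower. The causes were not tested.

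Within shared clusters, leaving out 1 library gave 0 to 3 lower and 0 to 0 higher in cluster 4, 1 to 13 lower and 0 to 2 higher in cluster 9, and 11 to 41 lower and 1 to 1 higher in cluster 10. In cluster 10, 32 were lower with library totals. The replicate numbers share only a number (correlation of deviations 0.157, with 2 pairs). With the replicate block 5 were higher and 44 lower in whole EBs, 1 higher and 1 lower in cluster 9, and 17 lower in cluster 10.

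Small changes turned sign. The Rpl22l1 to Rpl22 difference, 0.0801 at most, was -0.0757 without WT replicate 1 and -0.0032 without LSD1KO replicate 1, and 6 to 7 paralog ratios were higher. Rpl36al was at -0.067 thinned and from -0.117 to 0.171 without 1 library, Rplp1 at -0.032 and from -0.055 to 0.214, and Rps12 at 0.111 with totals and from -0.176 to 0.150 without 1 library (0.027 without LSD1KO replicate 1). With totals, Rpl36al in cluster 9 was at 0.0324 and Rps4l in cluster 10 at 0.0985. Rps27l in cluster 9 ran from -0.185 to 0.318 without 1 library (-0.0574 without LSD1KO replicate 1). With 2 libraries per genotype, no single share or ratio could pass an exact test.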
